A study of Mus musculus with 16 samples.

Results

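Spermatogonia labelled as Spry4 knockout and exposed to the MEK inhibitor PD0325901 were compared with vehicle-treated wild-type spermatogonia. The question was which transcripts differ from vehicle-treated wild type when Spry4 is targeted and the inhibitor is given. How far MEK activity fell was not measured in these libraries. The members were the 4 libraries titled Spry4 G-KO with inhibitor, named KO_PD here, and the 4 libraries titled wild type without it, named WT_vehicle, so 8 of the 16 libraries of the series. The titles do not spell out the G of G-KO. All mice had received busulfan, an alkylating agent toxic to dividing germ cells, at 10 mg/kg by intraperitoneal injection. From day 3 after busulfan they were injected daily for 7 days, the KO_PD mice with PD0325901 at 2.5 mg/kg and the WT_vehicle mice with 10% DMSO in PBS, and cells were sorted by flow cytometry on day 10. The column names in the labels carry Undiff for every library, GCRT_Spry4KO for the knockout and Spry4ff for the wild type. Since GCRT appears in the knockout names alone, whatever it denotes and the Spry4 knockout cannot be told apart. The sources used here do not give the sort markers, the driver of the deletion, the deleted part of Spry4, or the strain and age of the mice. The other 8 libraries, 4 of knockout with vehicle (KO_vehicle) and 4 of wild type with inhibitor (WT_PD), served to estimate the spread and are given as side values. Single libraries are written with their replicate number, as KO_PD 4.

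SPRY4 belongs to the Sprouty proteins, which are made in response to receptor tyrosine kinase signalling and feed back to restrain the RAS, RAF, MEK and ERK cascade. In undifferentiated spermatogonia, GDNF acting on the receptors GFRA1 and RET, together with FGF, sustains the stem cells through such signalling and through transcription factors that include ETV5. PD0325901 blocks MEK1 and MEK2, the kinases that phosphorylate ERK, so the inhibitor and the loss of a feedback inhibitor act on one cascade from opposite sides.

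No transcript differed by the test across all genes. Of 12907 genes tested, 0 passed an adjusted p of 0.05 (limma, Benjamini-Hochberg), which is 0.0% of them, and the smallest adjusted p was 0.9998. At an unadjusted p under 0.05 there were 195 genes, or 1.51%, with 86 higher in KO_PD (0.666%) and 109 lower (0.845%). If no gene differed, a share of about 0.05 would fall under that threshold, so this count is no excess over chance. A second method, limma voom on the reads recovered from the FPKM values, called 0 genes and had 127 at an unadjusted p under 0.05. The difference was above 0 for 47.9% of genes and below 0 for 52.1%, and the median over all genes was -0.01 on the log2(FPKM + 0.5) scale, which is used for every difference below. The range from the 5th to the 95th percentile ran from -0.24 to 0.20. The precision sets what could be seen, since the median 95% confidence interval reached 0.31 to either side of a gene's difference, and 91.3% of genes had an interval that lay wholly within a difference of 1 in size. In 58 genes (0.449%) all 4 KO_PD libraries lay above all 4 WT_vehicle libraries, and in 99 (0.767%) all lay below, together 157 genes or 1.22%. Without any difference, a share of about 0.0286 would be separated in this way by chance, so this count is no excess either. Because no gene passed, every difference given below is a measured difference that did not pass the test over all genes.

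**Figure D1:**
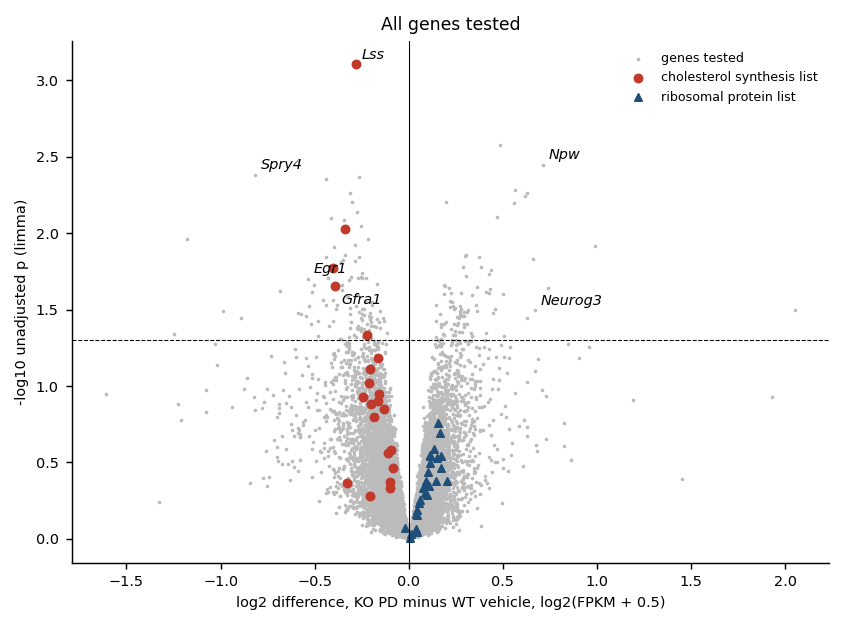
Each grey point is 1 of the 12907 genes tested, with the log2 difference of KO_PD minus WT_vehicle on the x axis and -log10 of the unadjusted limma p on the y axis, where the dashed line marks 0.05. Red circles are the 21 cholesterol synthesis genes, all left of 0, and blue triangles are the 28 ribosomal protein genes, 27 of them right of 0.

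The other contrasts of the design, which share libraries with this one and with each other, also called 0 genes each (limma, adjusted p of 0.05). At an unadjusted p under 0.05 they had 605 genes for KO_PD minus WT_PD, 382 for KO_PD minus KO_vehicle, 251 for KO_vehicle minus WT_vehicle and 115 for WT_PD minus WT_vehicle, beside the 195 given above. None of these counts was above a share of 0.05 of the genes tested, the share that chance would give.

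Spry4 itself was measured at 13.0, 8.23, 10.97 and 19.3 FPKM in the KO_PD libraries, against 22.6, 23.8, 21.9 and 19.9 FPKM in the WT_vehicle libraries. The groups did not overlap, but KO_PD 4 lay just under the lowest WT_vehicle library. The mean was 12.9 ± 4.71 FPKM in KO_PD and 22.1 ± 1.66 FPKM in WT_vehicle (SD, n = 4 each), 58.3% of the wild-type level. The difference was -0.82 (95% confidence interval -1.33 to -0.30), with a two-sided exact permutation p of 0.0286, the smallest that 4 against 4 allows, while limma gave it an adjusted p of 0.9998 over all genes. Reads from any undeleted exons would count towards this gene (ENSMUSG00000024427, chromosome 18, 38586247 to 38601415, GRCm38), so a level above 0 does not show uncut alleles. Acta2, the smooth muscle actin gene of the contractile cells around the tubules, stood at 1803, 1345, 1800 and 3937 FPKM in the same 4 KO_PD libraries, highest in the library where Spry4 was highest. In WT_vehicle it stood at 945, 2890, 3154 and 1986 FPKM, highest in WT_vehicle 3, while Spry4 was highest in WT_vehicle 2. With the level of contractile-cell markers as a term in the fit, the Spry4 difference was -0.87 and its limma adjusted p 0.216, the lowest in a range that reached 1 over the alternatives tried. KO_vehicle libraries averaged 11.01 ± 3.13 FPKM and WT_PD libraries 21.5 ± 4.89 FPKM of Spry4.

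Genes that ERK signalling induces, among them genes that restrain it in turn, stood near their wild-type levels apart from Spry4. Of 20 such genes tested, 10 lay above 0 and 10 below, with a median of 0.04. Only Spry4, the targeted gene, had groups that did not overlap, 1 of 20 beside 1.22% of all genes. Etv5, the GDNF-induced transcription factor, had 48.9, 56.2, 46.4 and 53.1 FPKM in KO_PD, against 47.2, 37.3, 48.4 and 55.6 FPKM in WT_vehicle. Its difference was 0.13 (95% confidence interval -0.14 to 0.40), and the libraries of the groups were interleaved. Dusp6, which encodes an ERK phosphatase, averaged 45.8 ± 6.62 FPKM in KO_PD and 42.3 ± 7.57 FPKM in WT_vehicle, a difference of 0.12 (-0.20 to 0.44). Etv4, a relative of Etv5, averaged 30.8 ± 5.14 FPKM in KO_PD and 25.5 ± 3.80 FPKM in WT_vehicle, a difference of 0.26 (-0.04 to 0.56). For these 3 genes the intervals leave out a loss or gain of 1 on the log2 scale. Among the remaining feedback genes, Spry1 averaged 31.1 FPKM in KO_PD and 25.2 in WT_vehicle (0.28, SE 0.29), Spry2 averaged 33.1 FPKM in KO_PD and 37.9 in WT_vehicle (-0.22, SE 0.37), and Spred2 averaged 22.3 FPKM in KO_PD and 22.5 FPKM in WT_vehicle (-0.01, SE 0.08).

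In the other groups, Etv5 and Dusp6 had their highest means in KO_vehicle and their lowest in WT_PD. Etv5 averaged 51.2 FPKM in KO_PD, 57.4 in KO_vehicle, 42.1 in WT_PD and 47.1 in WT_vehicle. Dusp6 averaged 45.8 FPKM in KO_PD, 51.1 in KO_vehicle, 39.6 in WT_PD and 42.3 in WT_vehicle. In both genes the KO_PD mean stood between that of KO_vehicle and that of WT_vehicle. The differences between neighbours in this order were within or close to the SDs of the groups. Etv4 did not share this order. It averaged 30.8 FPKM in KO_PD, 22.87 in KO_vehicle, 22.90 in WT_PD and 25.5 in WT_vehicle, highest in KO_PD.

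**Figure D2:**
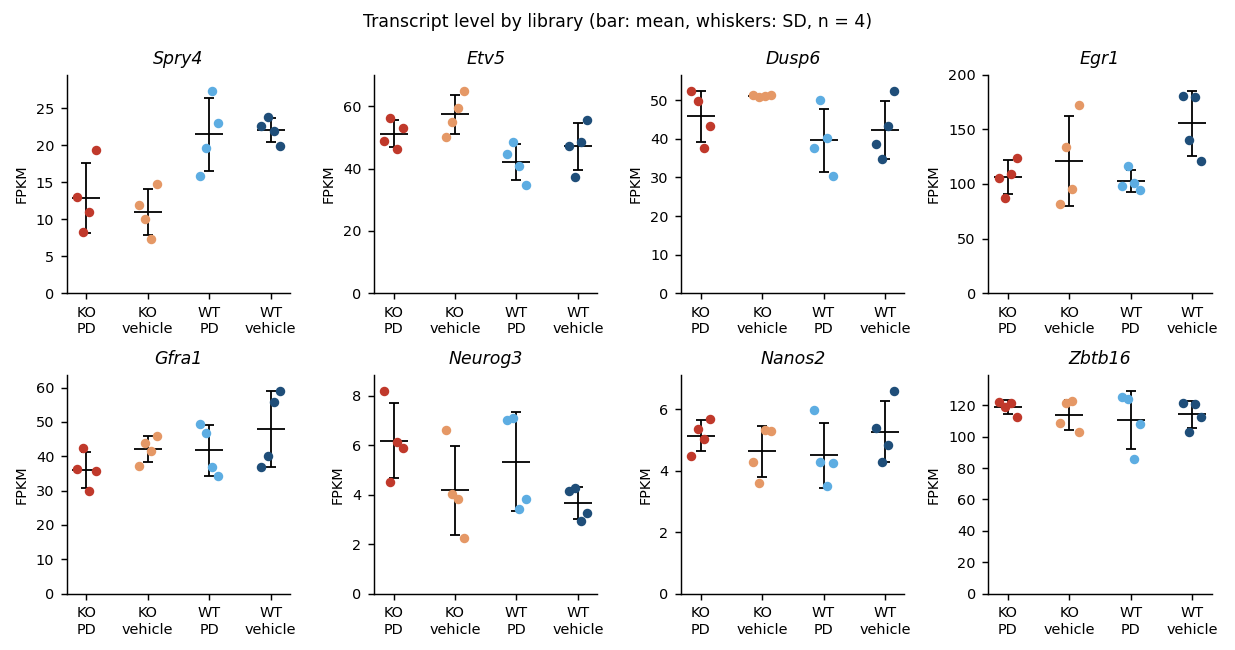
FPKM of 8 genes in every library, with KO_PD at the left and WT_vehicle at the right of each panel (points: libraries; bar and whiskers: mean and SD, n = 4 per group). Spry4 libraries of KO_PD (8.23 to 19.3 FPKM) lay below those of WT_vehicle (19.9 to 23.8 FPKM), Neurog3 libraries lay above, and the Etv5, Dusp6, Nanos2 and Zbtb16 libraries of the groups overlapped.

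Immediate early genes, which are transcribed within minutes of a stimulus without new protein, leaned lower in KO_PD. Of 23 tested, 21 lay below 0 and 2 above, with a median of -0.21, and the groups overlapped in every one of them. Egr1, an ERK-induced zinc finger factor, had 105, 87.2, 109 and 124 FPKM in KO_PD, against 181, 140.2, 179.9 and 121 FPKM in WT_vehicle. The difference was -0.54 (95% confidence interval -0.98 to -0.10, limma unadjusted p = 0.0199 and adjusted p = 0.9998), and KO_PD 4 stood above WT_vehicle 4 while the other libraries did not overlap. Btg2, an antiproliferative gene induced by p53 as well as by growth signals, had 185, 154, 171 and 218.7 FPKM in KO_PD, against 260.4, 319.8, 374 and 192 FPKM in WT_vehicle (-0.62, SE 0.46). Fos, the most abundant of the list, averaged 416 ± 126 FPKM in KO_PD and 455 ± 98.5 FPKM in WT_vehicle (-0.15, SE 0.41). The list was uneven between library sets: its median was -0.47 within the libraries numbered 440 to 447 and 0.02 within those numbered 448 to 455, where 14 of 23 genes lay above 0. The labels do not say what this numbering stands for. The summed level of the list was 2443, 1884, 2733 and 3630 FPKM in KO_PD, against 2973, 3426, 4002 and 2484 FPKM in WT_vehicle. The summed contractile-cell markers stood at 4718, 3352, 4491 and 9788 FPKM in KO_PD, lowest in KO_PD 2 and highest in KO_PD 4 as the immediate early sum was, and at 2508, 6769, 7731 and 4986 FPKM in WT_vehicle. With the contractile-cell markers as a term in the fit, the immediate early median was -0.33, with 21 of 23 below 0. Single libraries moved it too: it was -0.07 without KO_PD 2 (14 of 23 below 0), -0.13 without WT_vehicle 3, -0.33 without WT_vehicle 4 and -0.42 without KO_PD 4. The median was -0.64 for KO_vehicle minus WT_vehicle, -0.29 for WT_PD minus WT_vehicle, 0.04 for KO_PD minus WT_PD and 0.39 for KO_PD minus KO_vehicle, contrasts that share libraries.

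Among the receptors and the kinases of the cascade, Gfra1 was the gene with an unadjusted limma p under 0.05. That is 1 of 14 receptor genes and 0 of 23 core genes, beside 1.51% of all genes. Gfra1 encodes the GDNF co-receptor that marks the most stem-like spermatogonia (ENSMUSG00000025089, chromosome 19, 58235604 to 58455909, GRCm38). Its level was 36.3, 42.3, 29.8 and 35.6 FPKM in KO_PD, against 36.7, 40.2, 55.9 and 58.9 FPKM in WT_vehicle. The difference was -0.39 (95% confidence interval -0.74 to -0.04, limma unadjusted p = 0.0313, adjusted p = 0.9998), and the groups overlapped. WT_vehicle 3 and 4 were the high libraries, and the difference was 0.03 within the libraries numbered 440 to 447 and -0.81 within those numbered 448 to 455. Ret, its signalling partner, averaged 73.4 ± 5.4 FPKM in KO_PD and 72.9 ± 11.7 FPKM in WT_vehicle (0.02, 95% confidence interval -0.26 to 0.31). Of 14 receptor genes 11 lay above 0, with a median of 0.06, and Fgfr1 averaged 26.7 ± 7.78 FPKM in KO_PD and 25.1 ± 4.68 FPKM in WT_vehicle. Of 23 core genes running from RAS to ERK, 9 lay above 0, with a median of -0.02. Mapk3 (ERK1) averaged 43.1 FPKM in KO_PD and 41.3 in WT_vehicle (0.06, SE 0.12). These are transcript levels and say nothing of phosphorylated ERK.

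Neurog3 was the gene of the stem cell, progenitor and differentiation lists whose groups did not overlap. That is 1 of 15 progenitor genes, 0 of 23 stem cell genes and 0 of 15 differentiation genes, beside 1.22% of all genes. Neurog3 encodes a basic helix-loop-helix factor made in progenitors that are leaving the stem state (ENSMUSG00000044312, chromosome 10, 62133090 to 62134763, GRCm38). Its level was 8.19, 4.51, 6.14 and 5.87 FPKM in KO_PD, against 4.17, 4.27, 2.96 and 3.25 FPKM in WT_vehicle. All 4 KO_PD libraries lay above all 4 WT_vehicle libraries, KO_PD 2 by a small margin. The difference was 0.67 (95% confidence interval 0.07 to 1.27, limma unadjusted p = 0.0320, adjusted p = 0.9998). It was 0.48 within the libraries numbered 440 to 447 and 0.85 within those numbered 448 to 455. KO_vehicle averaged 4.18 FPKM and WT_PD 5.34 FPKM. In bulk samples, fewer cells of a type and less RNA per cell cannot be told apart, here and in every result on cell state.

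The genes that surround Neurog3 in the progenitor list did not share its difference. Of 15 progenitor genes tested, 7 lay above 0, with a median of 0.00. Sox3 averaged 50.6 ± 11.8 FPKM in KO_PD and 43.7 ± 4.71 FPKM in WT_vehicle (0.19, SE 0.17), and Rarg, a retinoic acid receptor, averaged 12.8 and 11.6 FPKM in KO_PD and WT_vehicle (0.14, SE 0.12). Lin28a averaged 64.0 ± 9.15 FPKM in KO_PD and 63.3 ± 11.7 FPKM in WT_vehicle (0.02, SE 0.20). Upp1 averaged 9.93 FPKM in KO_PD and 10.3 FPKM in WT_vehicle (-0.03, SE 0.26).

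Stem cell genes lay on both sides of 0, with 13 of 23 above and a median of 0.02. Nanos2, an RNA-binding protein that maintains stem cells, had 4.49, 5.36, 5.03 and 5.68 FPKM in KO_PD, against 5.39, 4.27, 4.83 and 6.59 FPKM in WT_vehicle (-0.02, 95% confidence interval -0.37 to 0.32). Id4, a helix-loop-helix inhibitor that marks stem cells, averaged 24.6 ± 2.23 FPKM in KO_PD and 23.6 ± 1.85 FPKM in WT_vehicle (0.06, -0.10 to 0.23). Bcl6b, a GDNF-responsive repressor, averaged 19.9 ± 2.77 FPKM in KO_PD and 16.7 ± 3.32 FPKM in WT_vehicle (0.25, SE 0.15). The stem cell median was 0.20 within the libraries numbered 440 to 447 and -0.15 within those numbered 448 to 455, so its sign was not shared by the sets. Zbtb16, a zinc finger factor of undifferentiated spermatogonia, averaged 119 ± 4.41 FPKM in KO_PD and 114 ± 8.70 FPKM in WT_vehicle (0.06, -0.18 to 0.29). Of 21 genes of the undifferentiated core 13 lay above 0, with a median of 0.02.

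Differentiation, meiosis and retinoic acid response were likewise near wild type. Kit, the receptor that appears on differentiating spermatogonia, had 2.49, 2.42, 3.19 and 1.85 FPKM in KO_PD, against 2.55, 2.82, 2.06 and 1.95 FPKM in WT_vehicle (0.06, 95% confidence interval -0.43 to 0.56). Of 15 differentiation genes 11 lay above 0 (median 0.07), and Stra8, a retinoic acid target, averaged 25.5 ± 4.18 FPKM in KO_PD and 26.1 ± 5.16 FPKM in WT_vehicle. Crabp1, a retinoic acid binding protein, averaged 53.6 ± 9.49 FPKM in KO_PD and 43.2 ± 3.75 FPKM in WT_vehicle (0.30, SE 0.15). Of 17 retinoic acid genes 10 lay above 0 (median 0.07), and of 22 meiotic genes 10 (median -0.07). Sycp3, a protein of the meiotic chromosome axis, had 40.7, 48.9, 27.2 and 17.03 FPKM in KO_PD, against 47.3, 43.2, 37.1 and 37.1 FPKM in WT_vehicle (-0.39, SE 0.35). KO_PD 4 was its lowest library and the groups overlapped.

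Cholesterol synthesis was the pathway list whose members all lay on one side of 0. Cells build cholesterol from acetyl-CoA through mevalonate, squalene and lanosterol, and the transcription factor SREBP2, held in the endoplasmic reticulum by INSIG proteins when sterols are plentiful, switches on most genes of the route. All 21 genes tested lay below 0 in KO_PD, with a median of -0.20 and a range from -0.40 to -0.09, where 52.1% of all genes lay below 0. At an unadjusted p under 0.05 there were 5 of the 21 (1.51% over all genes), and the groups did not overlap in 1 of them, Lss (0.767% over all genes for lower). Genes of one pathway are not independent, and no member passed the test over all genes. Of the other listed genes, Hmgcs1 was not analysed here, and Tm7sf2 was below the filter on low values.

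Lss encodes lanosterol synthase, which closes the sterol ring (ENSMUSG00000033105, chromosome 10, 76531588 to 76557138, GRCm38). Its level was 6.35, 6.28, 6.38 and 6.26 FPKM in KO_PD, against 7.88, 7.83, 8.57 and 6.96 FPKM in WT_vehicle. The KO_PD libraries were close together and all below the WT_vehicle libraries. The difference was -0.28 (95% confidence interval -0.42 to -0.14), with the smallest unadjusted p among the genes named, 0.000787, and a limma adjusted p of 0.9998. It was -0.29 within the libraries numbered 440 to 447 and -0.27 within those numbered 448 to 455. Lss averaged 6.57 FPKM in KO_vehicle and 7.06 FPKM in WT_PD.

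Genes for the steps before and after squalene lay below 0 alike, and the examples here include some of the largest differences of the list. Idi1, which makes dimethylallyl diphosphate, averaged 2.07 ± 0.570 FPKM in KO_PD and 2.82 ± 0.273 FPKM in WT_vehicle (-0.39, SE 0.15). Sqle, squalene epoxidase, averaged 11.3 ± 1.59 FPKM in KO_PD and 13.1 ± 0.418 FPKM in WT_vehicle (-0.21, SE 0.12). The enzymes after lanosterol had the largest difference of the list in Cyp51, lanosterol demethylase, with 6.96 ± 0.805 FPKM in KO_PD and 9.42 ± 1.43 FPKM in WT_vehicle (-0.40, SE 0.15). Msmo1, the sterol methyl oxidase of the next steps, averaged 5.49 ± 0.526 FPKM in KO_PD and 7.07 ± 0.608 FPKM in WT_vehicle (-0.34, SE 0.11). Among the regulators, Srebf2, which encodes SREBP2, stood at 52.7 ± 2.52 FPKM in KO_PD and 57.9 ± 5.54 FPKM in WT_vehicle (-0.13, SE 0.08). Insig1 averaged 38.3 ± 5.70 FPKM in KO_PD and 44.0 ± 6.01 FPKM in WT_vehicle (-0.20, SE 0.12), at the median of the list.

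**Figure D3:**
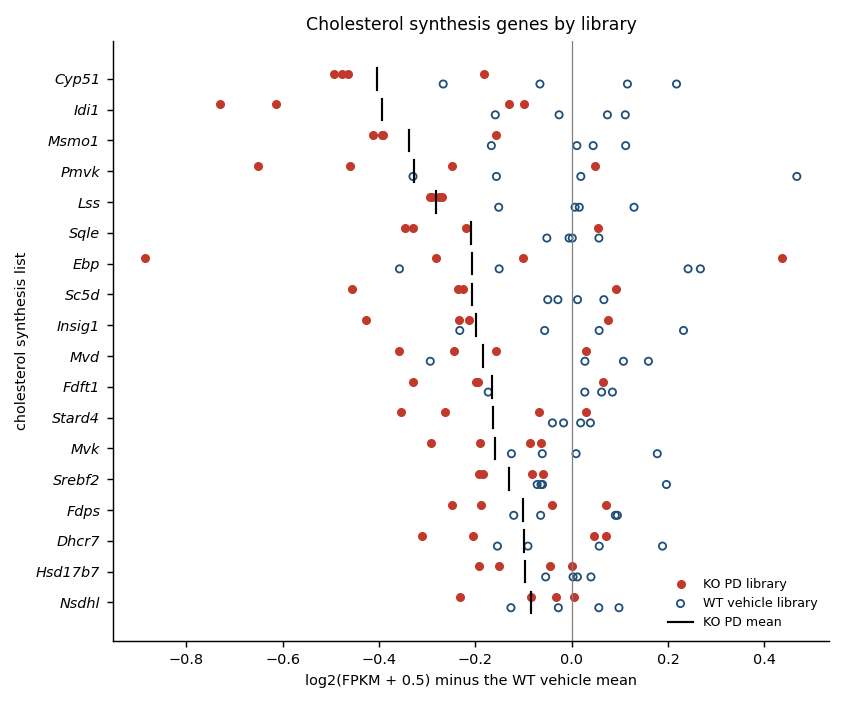
Each row is 1 of 18 genes shown of the 21 cholesterol synthesis genes tested, and points are log2(FPKM + 0.5) of single libraries minus the mean of the 4 WT_vehicle libraries (filled red: KO_PD; open blue: WT_vehicle; black tick: KO_PD mean). Every black tick lies left of 0, between -0.40 for Cyp51 and -0.09 for Nsdhl, and the points of the groups overlap in every row but Lss.

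The summed level of the 21 genes was 271, 307, 296 and 279 FPKM in KO_PD, against 325, 330.5, 361 and 299.7 FPKM in WT_vehicle. KO_PD 2 overlapped WT_vehicle 4. The sums averaged 288 ± 16.3 FPKM in KO_PD, 309.7 ± 29.2 in KO_vehicle, 321 ± 20.4 in WT_PD and 329 ± 25.4 FPKM in WT_vehicle, so the mean was lowest where both changes were present. The medians of the list were -0.10 for KO_vehicle minus WT_vehicle, -0.04 for WT_PD minus WT_vehicle, -0.15 for KO_PD minus WT_PD and -0.09 for KO_PD minus KO_vehicle. These contrasts share libraries with the comparison above. Within the libraries numbered 440 to 447 the median was -0.13 with 21 of 21 below 0, and within those numbered 448 to 455 it was -0.14 with 20 of 21 below 0. With the contractile-cell markers as a term it was -0.19, again with 21 of 21 below 0. Scd1, which desaturates fatty acids and is known as a target of the related SREBP1, had 1.79, 2.02, 1.71 and 1.32 FPKM in KO_PD, against 2.50, 2.34, 3.05 and 2.09 FPKM in WT_vehicle (-0.44, SE 0.13). Acat2, which makes acetoacetyl-CoA at the start of the route and was not on the list, had 9.36, 11.6, 11.3 and 10.3 FPKM in KO_PD, against 12.3, 13.7, 12.8 and 12.1 FPKM in WT_vehicle (-0.25, SE 0.09). Both genes come from the leading lower genes given below, whose rule requires groups that do not overlap. Scd1 averaged 1.86 FPKM in KO_vehicle and 1.92 FPKM in WT_PD. Acat2 averaged 10.8 FPKM in KO_vehicle and 13.0 FPKM in WT_PD.

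Promoters of sterol genes are known to carry an NF-Y box, the site of a factor that works beside SREBP. In the RefSeq promoter table (GRCm38.p6), 14 of the 21 genes had an entry. The 250 bases before the start held CCAAT or its reverse complement ATTGG in 13 of the 14, where 33.85% of all 32851 promoters of that length in the table held it. For each sterol gene the most upstream listed start was used, while the share over all promoters counts every entry. In Idi1, Cyp51 and Msmo1, no box lay in the part of the window outside the gene as annotated in GENCODE. The classical SREBP element, searched as TCACNCCAC on both strands, stood in 0 of the 14, against 1.05% of all promoters. That count says only that those letters are not in these windows. The promoters of Lss, which led the list, of the late-step desaturase Sc5d and of the sterol-sensing Insig1 are shown 5′ to 3′ on the gene's strand, with the NF-Y box in capitals. They are the upstream bases that lie outside the annotated transcripts of the gene, at chr10:76531355-76531587 on the plus strand, chr9:42264301-42264550 on the minus strand and chr5:28071162-28071362 on the plus strand, in that order. Each of the stretches holds 1 box.
Lss: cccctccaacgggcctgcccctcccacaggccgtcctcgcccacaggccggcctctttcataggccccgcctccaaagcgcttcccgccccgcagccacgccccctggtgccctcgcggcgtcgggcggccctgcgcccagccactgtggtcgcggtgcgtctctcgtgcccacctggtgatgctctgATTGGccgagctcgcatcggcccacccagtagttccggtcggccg
Sc5d: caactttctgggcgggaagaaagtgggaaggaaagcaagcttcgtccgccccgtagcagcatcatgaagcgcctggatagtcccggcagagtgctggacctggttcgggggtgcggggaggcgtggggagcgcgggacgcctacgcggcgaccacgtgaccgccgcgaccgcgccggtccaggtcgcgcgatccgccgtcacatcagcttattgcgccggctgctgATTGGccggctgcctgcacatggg
Insig1: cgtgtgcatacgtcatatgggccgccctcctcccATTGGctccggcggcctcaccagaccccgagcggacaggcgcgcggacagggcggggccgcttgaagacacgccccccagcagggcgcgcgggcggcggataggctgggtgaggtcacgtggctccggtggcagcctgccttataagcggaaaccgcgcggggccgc

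Cytosolic ribosomal protein genes leaned the other way, with 27 of 28 above 0 (47.9% over all genes), a median of 0.10 and a range from -0.02 to 0.20. The groups overlapped in every one of them, and 0 of 28 had an unadjusted p under 0.05 (1.51% over all genes). Rpl4 had 695, 863, 758 and 859 FPKM in KO_PD, against 759.9, 764.5, 788 and 759 FPKM in WT_vehicle (0.04, SE 0.10). The sum over the list was 5492, 6485, 6311 and 7587 FPKM in KO_PD, against 5647, 5964, 6665 and 6016 FPKM in WT_vehicle. KO_PD held both the lowest and the highest library. With the contractile-cell markers as a term the median was 0.09 and 24 of 28 lay above 0. Without KO_PD 4 the median was 0.01 and 19 of 28 lay above 0. Genes of this family have many processed copies in the genome, and the sources used here do not say how shared reads were counted.

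The genes with the smallest p among those whose groups did not overlap were named by rule, 12 in each direction of 40 and 84 candidates. Of the higher genes Npw, which encodes the neuropeptide W precursor, had 3.04, 2.73, 3.17 and 3.47 FPKM in KO_PD, against 1.39, 1.41, 2.37 and 1.74 FPKM in WT_vehicle. That difference was 0.71 (95% confidence interval 0.27 to 1.15), the largest of the 12. Rspo1, a secreted R-spondin that strengthens Wnt signalling, had 2.06, 1.93, 2.31 and 2.24 FPKM in KO_PD, against 1.504, 1.44, 1.13 and 1.09 FPKM in WT_vehicle (0.56, 0.20 to 0.93). Its WT_PD mean was 1.91 FPKM and its KO_vehicle mean 1.204 FPKM. Recql5, a DNA helicase of the RecQ family, had 5.52, 5.58, 5.29 and 5.59 FPKM in KO_PD, against 4.70, 4.56, 4.95 and 4.73 FPKM in WT_vehicle (0.20, 0.07 to 0.33). Both groups were tight in this gene. Khsrp, which binds AU-rich messenger RNAs, averaged 37.5 ± 4.03 FPKM in KO_PD and 31.9 ± 0.713 FPKM in WT_vehicle (0.22, SE 0.09). The others were Arhgdig (0.37), the small nucleolar RNA Snord32a (0.66), Mrpl40 of the mitochondrial ribosome (0.19), Gmeb2 (0.14), Smco4 (0.24), the fatty acid transporter family member Slc27a3 (0.27), Neurog3 and the zinc finger gene Zfp296 (0.29). Snord32a lies within another transcribed gene and is shorter than typical fragments, so its value is uncertain.

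Of the lower genes, Lss, Spry4, Scd1 and Acat2 have been described. Slc31a1, the cell's copper importer, had 6.19, 6.53, 6.51 and 6.26 FPKM in KO_PD, against 7.49, 8.07, 7.97 and 7.52 FPKM in WT_vehicle (-0.27, 95% confidence interval -0.43 to -0.10). Both groups were tight, and the differences within the 2 sets of library numbers were -0.27 and -0.26. Its means were 7.29 FPKM in KO_vehicle and 7.68 FPKM in WT_PD, so the KO_PD mean was the lowest of the 4 groups. Nr1d2, a circadian repressor, averaged 23.5 ± 2.27 FPKM in KO_PD and 28.1 ± 2.39 FPKM in WT_vehicle (-0.25, SE 0.08). Mrpl1, of the mitochondrial ribosome, had 6.91, 7.67, 6.14 and 4.53 FPKM in KO_PD, against 7.68, 9.37, 7.85 and 8.49 FPKM in WT_vehicle (-0.40, SE 0.14), with KO_PD 4 lowest. Emc2 of the endoplasmic reticulum membrane complex (-0.28), Nxf3 of the RNA export factor family (-0.30), Bbs5 of the ciliary BBSome (-0.34), the cilium gene Cfap418 (-0.35) and Apoo of the mitochondrial inner membrane (-0.36) completed the 12. Each of these 24 genes kept its sign within both sets of library numbers. The sets hold the same libraries that chose the genes, so the rule fixed this in advance.

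**Figure D4:**
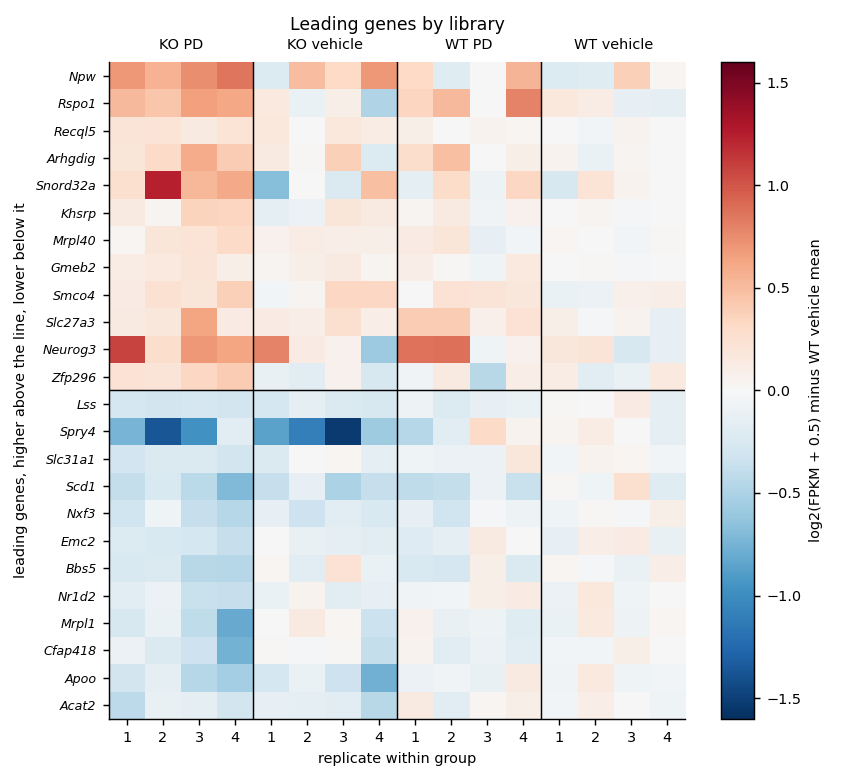
Colour gives log2(FPKM + 0.5) minus the WT_vehicle mean for the 12 leading higher genes (above the line) and the 12 leading lower genes (below it) in all 16 libraries, with KO_PD at the left and WT_vehicle at the right. The KO_PD columns are red above the line and blue below it by the rule that chose the genes; KO_vehicle and WT_PD, which the rule did not use, are paler in most rows, but KO_vehicle is as far from WT_vehicle as KO_PD is, or farther, in Spry4 (-1.01) and Apoo (-0.37), and WT_PD in Slc27a3 (0.28).

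The remaining pathways had medians from -0.14 (interferon response) to 0.02 (G1 control and DNA methylation), beside -0.01 for all genes, and no member of them passed. In DNA replication 14 of 31 genes lay above 0 (median 0.00), in mitosis 12 of 24 (0.00) and in G1 control 13 of 24 (0.02). Mki67, a proliferation marker, had 32.5, 44.5, 38.2 and 32.1 FPKM in KO_PD, against 33.3, 38.0, 32.1 and 40.9 FPKM in WT_vehicle (0.02, 95% confidence interval -0.29 to 0.34). Of 27 genes of crosslink repair and homologous recombination, which mend the lesions busulfan makes, 10 lay above 0 (median -0.07). Brca2 averaged 19.6 ± 4.97 FPKM in KO_PD and 21.1 ± 2.16 FPKM in WT_vehicle. Of 24 p53 and damage genes 8 lay above 0 (median -0.06). Cdkn1a, the p53-induced inhibitor of cyclin-dependent kinases, had 8.86, 11.4, 13.8 and 18.3 FPKM in KO_PD, against 8.99, 18.4, 17.6 and 13.9 FPKM in WT_vehicle (-0.16, -1.19 to 0.87), so a change of 1 in either direction is within its interval. Among genes of FOXO and quiescence 6 of 21 lay above 0 (-0.09), of the BCL2 family 8 of 20 (-0.02), and of ATF4 targets 6 of 20 (-0.04).

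In metabolism, 10 of 23 oxidative phosphorylation genes (median -0.02) and 9 of 22 glycolysis genes (-0.04) lay above 0. Of 14 interferon response genes 4 lay above 0 (-0.14), and Rsad2, an antiviral enzyme, averaged 2.78 ± 0.389 FPKM in KO_PD and 4.03 ± 1.12 FPKM in WT_vehicle (-0.44, SE 0.18). That median was 0.04 within the libraries numbered 448 to 455, and -0.04 without KO_PD 2 and without WT_vehicle 1. Of germline programmes, 13 of 20 piRNA and germ granule genes (0.01) and 8 of 14 DNA methylation genes (0.02) lay above 0. Of cell contact and signalling lists, 11 of 16 adhesion genes (0.01), 12 of 21 Wnt genes (0.01) and 14 of 29 genes of BMP, activin and TGF-beta signalling (-0.01) did. Tcf7l2, a Wnt transcription factor, was the 1 of 21 Wnt genes whose groups did not overlap (0.767% over all genes for lower). It had 3.58, 3.35, 3.37 and 3.26 FPKM in KO_PD, against 4.27, 3.73, 3.74 and 3.86 FPKM in WT_vehicle (-0.18, SE 0.11). With the contractile-cell markers as a term, 4 of 16 adhesion genes (-0.06), 8 of 21 Wnt genes (-0.04) and 6 of 23 oxidative phosphorylation genes (-0.07) lay above 0.

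**Figure D5:**
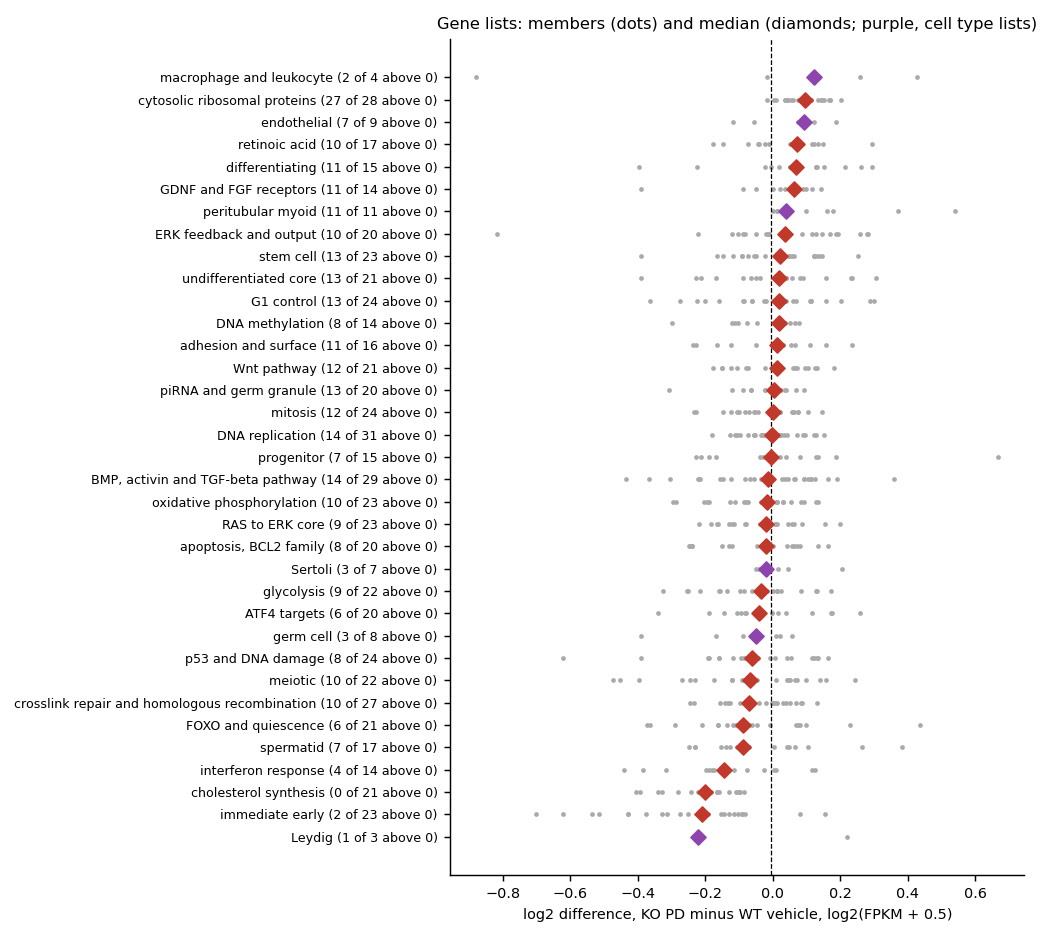
Grey dots are the genes tested of each list, diamonds the list medians (red: pathways and states; purple: cell type markers), and the x axis is the log2 difference of KO_PD minus WT_vehicle, with a dashed line at the median of all genes, -0.01. Cholesterol synthesis (0 of 21 above 0) and immediate early genes (2 of 23) lie left of the line and ribosomal proteins (27 of 28) right of it, while most lists straddle it.

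The labelled cell type was checked against its markers. Of 8 germ cell markers 3 lay above 0 (median -0.05), and Ddx4 averaged 100.3 ± 21.4 FPKM in KO_PD and 106 ± 14.6 FPKM in WT_vehicle. Every library also held much contractile-cell transcript: 11 of 12 peritubular myoid markers were tested, and their summed level ran from 3352 to 9788 FPKM in KO_PD and from 2508 to 7731 FPKM in WT_vehicle. All 11 lay above 0, with a median of 0.04, but 3 of 11 did without KO_PD 4 (-0.19) and 4 of 11 without WT_vehicle 1 (-0.26). The means were 5587 ± 2864 and 5499 ± 2295 FPKM in KO_PD and WT_vehicle (SD, n = 4 each). Acta2 differed by 0.00, but with a 95% confidence interval from -1.65 to 1.65. Other lists were thin: of 14 Sertoli markers 7 were tested (3 above 0, median -0.02), with Sox9 below the filter, of 12 Leydig markers 3 (1 above 0, -0.22), of 12 endothelial markers 9 (7 above 0, 0.09), of 12 leukocyte markers 4 (2 above 0, 0.12) and of 8 erythrocyte markers 0. Only the contractile-cell and spermatid markers were used as terms in a fit, and the part of the other lists in the differences above was not tested. Of 17 spermatid genes 7 lay above 0 (-0.09), and their sum ran from 45.2 to 184 FPKM in KO_PD and from 24.1 to 125 FPKM in WT_vehicle, against 3469.7 FPKM in KO_vehicle 3, which enters these results only through the shared estimate of spread. The spermatid median turned with the libraries used: it was 0.61 within the libraries numbered 440 to 447 (17 of 17 above 0) and -0.71 within those numbered 448 to 455 (1 of 17). It was -0.48 without KO_PD 1 and -0.44 without WT_vehicle 2 (1 of 17 above 0 each), and 0.14 without WT_vehicle 1 (14 of 17). It also lay above 0 without KO_PD 2 (0.06), KO_PD 3 (0.12), KO_PD 4 (0.03) and WT_vehicle 4 (0.06), was -0.01 without WT_vehicle 3, and was 0.06 with the contractile-cell term.

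Across the 16 libraries 12257 to 12805 genes reached 1 FPKM. A depth factor, which turns FPKM values back into reads, was estimated for each library from the steps between low values. It ran from 23359800 to 36613400. The factors are not plain library sizes, since WT_PD 3 had a factor of 32258000 but 36307000 recovered reads in annotated genes. In most libraries the recovered reads were fewer than the factor. At these factors, 93.0% to 94.3% of small recovered counts (below 100) came out no more than 0.1 from an integer. A multiple of the right factor would also give integers, so this share does not fix the scale. Nothing in the labels says that the replicates came from separate mice, so p-values measure only the spread between these libraries, which may be technical.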

How the data were processed

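The authors deposited FPKM values (fragments corrected for transcript length and sequencing depth) for each library. Per the submitters' processing notes, the tools were FastQC, STAR 2.7.10a and edgeR 4.0.14 and the builds mm10 and GRCm39, without their roles. The sources used here do not give the read counter, gene lengths or any scaling. Polyadenylated RNA went into stranded libraries, per the labels' protocols.

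The table lists 16383 genes, and 15771 symbols (96.3%) matched GENCODE M21 (GRCm38), used for identifiers, positions and exon lengths. The 12907 genes at 1 FPKM or more in at least 4 libraries were tested and 3476 left out. With log2(FPKM + 0.5) of all 16 libraries, group means were fitted by limma 3.58.1 in R 4.3.3, with a variance trend on the mean level and Benjamini-Hochberg adjustment over the genes tested at 0.05. This scale understates differences of genes near or below 1 FPKM. For Spry4 an exact permutation test, two-sided, was added (scipy 1.17.1, Python 3.11.15). The code was tested on simulated data.

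The members, the 29 pathway lists and the 7 cell type lists were chosen with earlier results of these data known, so counts over lists are descriptions. Named genes were 15 signalling, state and marker genes, the 12 higher and 12 lower genes of smallest p whose libraries did not overlap and whose mean was at least 2 FPKM in 1 group (without predicted genes and pseudogenes), and list members whose groups did not overlap or whose level was highest. Other list members named as examples were chosen after their values were seen. Alternatives covered the pseudocount, the filter, scaling, the libraries in the fit, the replicate block, the library numbers 440 to 447 against 448 to 455 (2 libraries per group in each set), contractile-cell and spermatid terms, voom on recovered reads, and leaving out each library. The voom alternative used 12467 genes. Single values of some list members are not reported here, though the list counts include them.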

Additional observations from a re-analysis of the deposited data

Results flagged for a closer look

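In 7 of 146 groups of 4 libraries examined, 1 library lay far from the other 3 by Dixon's gap test, and chance alone marks about 1 in 20 groups. Among single genes these were Slc27a3 in KO_PD 3 (6.81 FPKM, the highest), Gmeb2 in WT_vehicle 3 (11.6 FPKM, the lowest) and Apoo in WT_vehicle 2 (5.42 FPKM, the highest). Among summed lists they were the Sertoli list in KO_PD 4 (701 FPKM, the highest), the leukocyte list in KO_PD 3 (8.81 FPKM, the highest), the DNA replication list in WT_vehicle 4 (717 FPKM) and the BCL2 family list in WT_vehicle 1 (225.35 FPKM). Vim alone gave 596 FPKM of that Sertoli sum, and the contractile-cell sum of KO_PD was highest in the same library. No cause was tested.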

How the results depend on the processing

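The count of genes past the threshold was 0 in each of the 24 alternatives, with the smallest adjusted p at 0.216 (contractile-cell term, limma). At an unadjusted p under 0.05 the counts ran from 74 genes (without WT_vehicle 2) to 800 (with the contractile-cell term, alone or with the spermatid term), beside 195. Others more than 1.5 times away were 504 without KO_PD 2, 491 without KO_PD 1, 89 without KO_PD 3, 102 without KO_PD 4, 406 with the library-number set as a term, 640 within library numbers 448 to 455 and 127 with voom. Same-numbered KO_PD and WT_vehicle libraries deviated together with r of 0.26, -0.21, -0.11 and -0.18 for numbers 1 to 4, so the numbers do not pair the samples; with a replicate block there were 0 calls and 326 genes at an unadjusted p under 0.05 in all 16 libraries (237 in the 8 alone).

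Spry4 ran from -1.03 to -0.63 with each of the 8 libraries left out in turn, with an exact permutation p of 0.0571 each time, the smallest that 3 against 4 allows. Of 879 values of the 37 named genes, 25 turned sign, all in genes whose groups overlap. The leading genes were chosen because their groups did not overlap, so fits on fewer of these libraries could not turn their sign. Within library numbers 440 to 447 they were Gfra1 (0.027), Nanos2 (0.030), Kit (-0.11) and Acta2 (-0.086). Within 448 to 455 they were Etv5 (-0.063), Dusp6 (-0.24), Ret (-0.15), Id4 (-0.077), Mki67 (-0.049) and Cdkn1a (0.023). Acta2 was -0.21 with the contractile-cell term and -0.21 with both terms. Acta2 is itself among the markers that make up that term, so its sign there is not informative. With 1 library left out, Acta2 ran from -0.37 to 0.21, Cdkn1a from -0.37 to 0.0032, Nanos2 from -0.11 to 0.082, Ret from -0.090 to 0.10, Mki67 from -0.071 to 0.084 and Kit from -0.043 to 0.17. The cause of these was not tested. The cholesterol synthesis median ran from -0.22 to -0.13 over all alternatives, and the immediate early median from -0.42 to -0.07 with 1 library left out (14 of 23 below 0 without KO_PD 2). Depth limits genes of a few FPKM most.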

Other observations

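The largest differences between KO_PD and WT_vehicle, 14 genes at 1 or more in size on the log2 scale, were mostly genes whose level was split among libraries of the same group. They were chosen after their values were seen. Vcp-rs had 81.8, 3.54, 41.9 and 3.54 FPKM in KO_PD, against 3.53, 3.91, 3.94 and 2.96 FPKM in WT_vehicle, and Gdpd3 had 17.7, 9.97, 18.5 and 12.6 FPKM in KO_PD, against 15.9, 0.960, 0.461 and 6.53 FPKM in WT_vehicle. Rpsa-ps10 had 3.60, 201, 105 and 115 FPKM in KO_PD, against 3.18, 146, 88.4 and 3.24 FPKM in WT_vehicle, and Rnf26rt had 0.0622, 0.0176, 0.0430 and 4.89 FPKM in KO_PD, against 0.0278, 3.82, 4.87 and 5.52 FPKM in WT_vehicle. Such levels split libraries of the same group and followed the groups only in part. Vcp-rs and Rpsa-ps10 are named as copies related to other genes, so reads shared with those genes make their values uncertain.

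Nr4a3, a nuclear receptor gene of the immediate early kind that was not on the list, had 5.39, 11.6, 18.7 and 14.4 FPKM in KO_PD, against 19.5, 40.7, 30.3 and 23.6 FPKM in WT_vehicle (-1.23, limma unadjusted p = 0.131, adjusted p = 0.9998). Its groups did not overlap, but its WT_PD libraries spread from 4.97 to 73.0 FPKM.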
